A study of Mus musculus with 292 samples.

Results

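Liver messenger RNA was compared between ZT6, the middle of the day, and ZT18, the middle of the night, in male mice of the C57BL/6J strain. They were wild type and 26 weeks old. ZT (zeitgeber time) is by convention the hours since lights-on, and the light schedule itself is not stated in the labels. The comparison holds 17 libraries of the 292 in the series and of the 77 from liver, chosen by their tissue and ZT labels. The ZT6 group holds 12 libraries from 12 mice, 6 taken at 6 h and 6 at 30 h of a sampling course of 36 h. The ZT18 group holds 5 libraries from 5 mice, all taken at 18 h. A ZT18 library, replicate 4, was left out because it held 11.7 M counts and the gene model Gm42418 took 62.3% of them. Both groups had the same genotype, sex and age, no treatment is labelled, and each mouse gave 1 liver library. Tissue was frozen on dry ice, total RNA was extracted from it, and an enriched fraction of that RNA was sequenced, so the values describe whole tissue. In such bulk tissue, fewer cells of a type and less RNA per cell cannot be told apart.

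The circadian clock of a liver cell is a loop of transcription factors. BMAL1 (gene Arntl) and CLOCK switch on the Period and Cryptochrome genes through E-box sequences, and the Period and Cryptochrome proteins in turn block BMAL1 and CLOCK. The REV-ERB receptors (Nr1d1, Nr1d2) repress, and the ROR receptors activate, genes with ROR elements, Arntl among them, while Dbp, Tef and Hlf carry the rhythm to output genes through D-boxes. Mice feed mainly at night, and liver genes of lipid, glucose, amino acid and drug metabolism, of protein folding and of ribosome assembly are known to follow the clock, feeding, body temperature and glucocorticoid hormones.

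Total gene counts ran from 29.5 to 39.9 M at ZT6 and from 30.0 to 34.7 M at ZT18. Levels are in CPM, the counts of a gene per 1 M counts of its library, and a ratio is the log2 of ZT6 over ZT18, so a positive value means a higher level at ZT6. After a log2 ratio, ± gives an approximate standard error. It is the size of the ratio divided by the square root of the F statistic of its test. After a mean, ± gives the SD over libraries. Ratios and adjusted p-values come from edgeR's quasi-likelihood test with Benjamini-Hochberg adjustment over all genes tested, and a gene was called at an adjusted p under 0.05. The liver label was checked with 10 hepatocyte markers, whose summed level was 115202 to 129350 CPM at ZT6 and 106524 to 129111 CPM at ZT18. The pancreatic markers Prss2, Pnlip and Try4 and the adipocyte marker Lep were at 0 in all 17 libraries. The summed level of all 6 pancreatic markers had a median of 0.682 CPM at ZT6 and 0.266 CPM at ZT18. That of all 4 adipocyte markers had a median of 0.803 CPM at ZT6 and 3.074 CPM at ZT18. Only 1 marker of each list was tested. The pancreatic one was called higher at ZT6 (log2 1.48) and the adipocyte one lower (log2 -1.43).

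ZT6 replicate 7, taken at 6 h, stood apart from the other 16 libraries. Mitochondrial genes took 13.6% of its counts, against 5.59% to 7.18% in the other ZT6 libraries and 5.95% to 7.06% in the ZT18 libraries. The log2 level of each gene in a library was set against the median of the other libraries of its ZT group. In replicate 7 the 5028 genes with over 5000 exonic bases had a median log2 deviation of -0.79. The 881 genes with under 1000 exonic bases had one of 0.053. The difference between those median deviations was 0.84 in replicate 7, -0.14 to 0.11 in the other ZT6 libraries and -0.077 to 0.082 in the ZT18 libraries. The cause of this bias was not tested. Among genes described below, replicate 7 held the lowest ZT6 level of Hsph1, Per2, Cry1, Ppp1r3b and Pnpla3, which were lower at ZT6. It also held the lowest ZT6 level of Arrdc3, Fbxo21 and Syt1, which were higher at ZT6. Replicate 7 was kept, as the labels give no ground to drop it, and the counts called in each gene list are given with and without it.

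**Figure D1:**
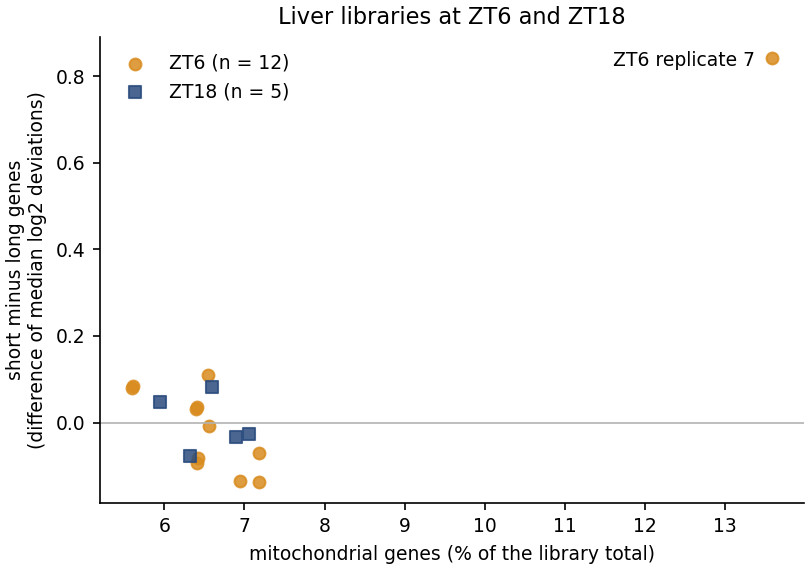
Share of counts in mitochondrial genes (horizontal axis, % of the library total) against the difference between short and long genes in median log2 deviation (vertical axis), 1 point per liver library (circles ZT6, squares ZT18). ZT6 replicate 7 lies alone at 13.6% and 0.84, and the other 16 libraries lie at 5.59% to 7.18%.

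Liver genes differed between mid-day and mid-night in nearly equal numbers up and down. Of 15374 genes tested, 3459 (22.5%) were called: 1755 (11.4%) were higher and 1704 (11.1%) lower at ZT6. At 2-fold or more, 301 (1.96%) were higher and 280 (1.82%) lower. All ZT6 libraries lay above all ZT18 libraries in 349 genes (2.27%) and below them in 553 (3.6%). The median log2 ratio of all genes was 0.027. Without ZT6 replicate 7, 5129 genes were called, 2509 (16.4%) higher and 2620 (17.1%) lower, and 3458 of the 3459 calls were among them. The shares of 11.4% and 11.1% given beside the gene lists below are those of the main fit. List counts without replicate 7 are to be set against 16.4% and 17.1% instead. With ZT18 replicate 4 put back, 9.32% of genes were called higher and 10.9% lower.

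Clock genes held some of the widest ratios in the liver. Of 24 measured clock genes, 5 were higher and 7 lower at ZT6 (5 and 9 without replicate 7), where 11.4% and 11.1% of all genes were. Of these, 4 higher and 5 lower passed 2-fold, as did 1.96% and 1.82% of all genes. The median ratio of the list was -0.21. Nr1d1, the REV-ERBα repressor, had the widest ratio of the genes named as higher at ZT6 (ENSMUSG00000020889, chromosome 11, 98767932 to 98775333 on GRCm38). Its lowest, median and highest levels at ZT6 were 141, 163 and 214 CPM, and the ZT18 libraries held 2.61, 3.43, 2.65, 1.27 and 4.14 CPM. The groups were far apart (log2 5.91 ± 0.24, adjusted p = 9.64e-12). Nr1d2, its REV-ERBβ partner, had 33.4, 105 and 129.5 CPM at ZT6 and 37.7, 40.2, 36.2, 16.1 and 26.7 CPM at ZT18 (log2 1.65 ± 0.22, adjusted p = 2.88e-05). There the groups overlapped through replicate 7 alone, at 33.4 CPM.

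Among the activators, Arntl (BMAL1, ENSMUSG00000055116, chromosome 7, 113207465 to 113314126) had 3.62, 6.71 and 22.4 CPM as lowest, median and highest at ZT6 and 30.8, 25, 24.6, 25.1 and 21.1 CPM at ZT18 (log2 -1.70 ± 0.28, adjusted p = 0.000265). Its highest ZT6 library, replicate 4, reached into the ZT18 range. Clock was lower by a small margin, 41.6 ± 7.7 CPM at ZT6 and 51.3 ± 5.41 CPM at ZT18 (log2 -0.31 ± 0.10, adjusted p = 0.036). That call was lost in 10 of 30 other analyses. Npas2, which can stand in for CLOCK, averaged 1.01 ± 0.444 CPM at ZT6 and 0.571 ± 0.377 CPM at ZT18 and was not called (adjusted p = 0.132).

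Of the repressors of the negative limb, Cry1 and Per2 were lower at ZT6. Cry1, a Cryptochrome (ENSMUSG00000020038, chromosome 10, 85131700 to 85185064), had 3.17, 6.09 and 8.72 CPM at ZT6 and 52, 47.7, 41.2, 50.3 and 42.1 CPM at ZT18 (log2 -2.91 ± 0.15, adjusted p = 1.86e-10), with no overlap. Per2 had 3.36, 14.8 and 22.6 CPM at ZT6, against 35.8, 71.1, 63.2, 106 and 97.3 CPM at ZT18 (log2 -2.50 ± 0.27, adjusted p = 3.7e-06), also with no overlap. Per1 averaged 12 ± 7.33 CPM at ZT6 and 23.6 ± 8.26 CPM at ZT18 and missed the threshold (adjusted p = 0.0528), though it passed in 9 of 30 other analyses, among them the fit without ZT6 replicate 7 (adjusted p = 0.0499). Per3 (23.3 ± 10.1 CPM at ZT6 and 27.2 ± 6.08 CPM at ZT18) and Cry2 (43.6 ± 11.4 CPM at ZT6 and 51.2 ± 2.21 CPM at ZT18) were not called.

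Other loop and output genes split by direction. Rora, a ROR receptor, was not called. Dbp, the D-box activator, had 33.8, 90.3 and 118 CPM at ZT6 and 8.19, 6.18, 9.05, 4.2 and 5.09 CPM at ZT18 (log2 3.75 ± 0.28, adjusted p = 3.86e-08). The related Tef and Hlf were not called, with adjusted p-values of 0.697 and 0.23. Nfil3, a repressor at the same D-boxes, moved opposite to Dbp (19.6 ± 6.12 CPM at ZT6 and 39 ± 10.9 CPM at ZT18, log2 -0.99 ± 0.20, adjusted p = 0.00156). Bhlhe41 (DEC2), a repressor at E-boxes, was higher at ZT6, with 5.61 ± 2.94 CPM at ZT6 and 1.38 ± 0.931 CPM at ZT18 (log2 2.01 ± 0.47). Usp2, a deubiquitinase with rhythmic expression, was lower, 9.6 ± 5.97 CPM at ZT6 and 30.3 ± 7.49 CPM at ZT18, with no overlap (log2 -1.65 ± 0.36). Under the exon annotation used here, 8.55% of Nr1d1's exonic bases are shared with Thra on the other strand, and 18.0% of Dbp's with Sphk2; Bhlhe41 also shares exonic bases with another model. Whether counting used strand is not stated, so those levels may hold reads of the neighbour.

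Promoters of 19 of the 24 clock genes were found in the RefSeq table (GRCm38.p6, 250 bases before to 50 after each start). The E-box, searched as CACGTG, was in 5 of the 19 (Per1, Cry1, Tef, Bhlhe41, Ciart) and in 8.09% of the 27025 genes searched in that table. Among the 10751 of these genes that were tested in liver it was in 11.5%. The ROR element, AA, any base and TAGGTCA, was in 1 of the 19, Arntl, against 0.259% of all and 0.205% of those tested. The D-box TTATGTAA was in Per3 alone, against 1.11% of all and 0.726% of those tested. Both strands were searched for each motif, and a match is a run of letters, not a bound site. Cry1 and Arntl are shown because they belong to opposite limbs of the loop and were both far lower at ZT6 than at ZT18. Capitals mark the E-box in Cry1 (chr10:85185005-85185304, minus strand) and the ROR element in the second listed start of Arntl (chr7:113207261-113207560, plus strand).
Cry1: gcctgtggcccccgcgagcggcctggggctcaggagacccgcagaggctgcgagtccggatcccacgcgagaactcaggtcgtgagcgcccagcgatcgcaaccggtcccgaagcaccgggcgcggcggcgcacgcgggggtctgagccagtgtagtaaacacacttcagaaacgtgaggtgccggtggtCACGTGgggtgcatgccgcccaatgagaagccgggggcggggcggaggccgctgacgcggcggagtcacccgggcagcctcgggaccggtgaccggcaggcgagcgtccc
Arntl: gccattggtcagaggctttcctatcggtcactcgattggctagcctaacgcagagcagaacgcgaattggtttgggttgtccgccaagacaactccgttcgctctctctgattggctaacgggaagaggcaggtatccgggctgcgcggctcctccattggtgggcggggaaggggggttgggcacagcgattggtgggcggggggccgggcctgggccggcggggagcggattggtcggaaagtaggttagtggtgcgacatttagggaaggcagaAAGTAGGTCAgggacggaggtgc

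**Figure D2:**
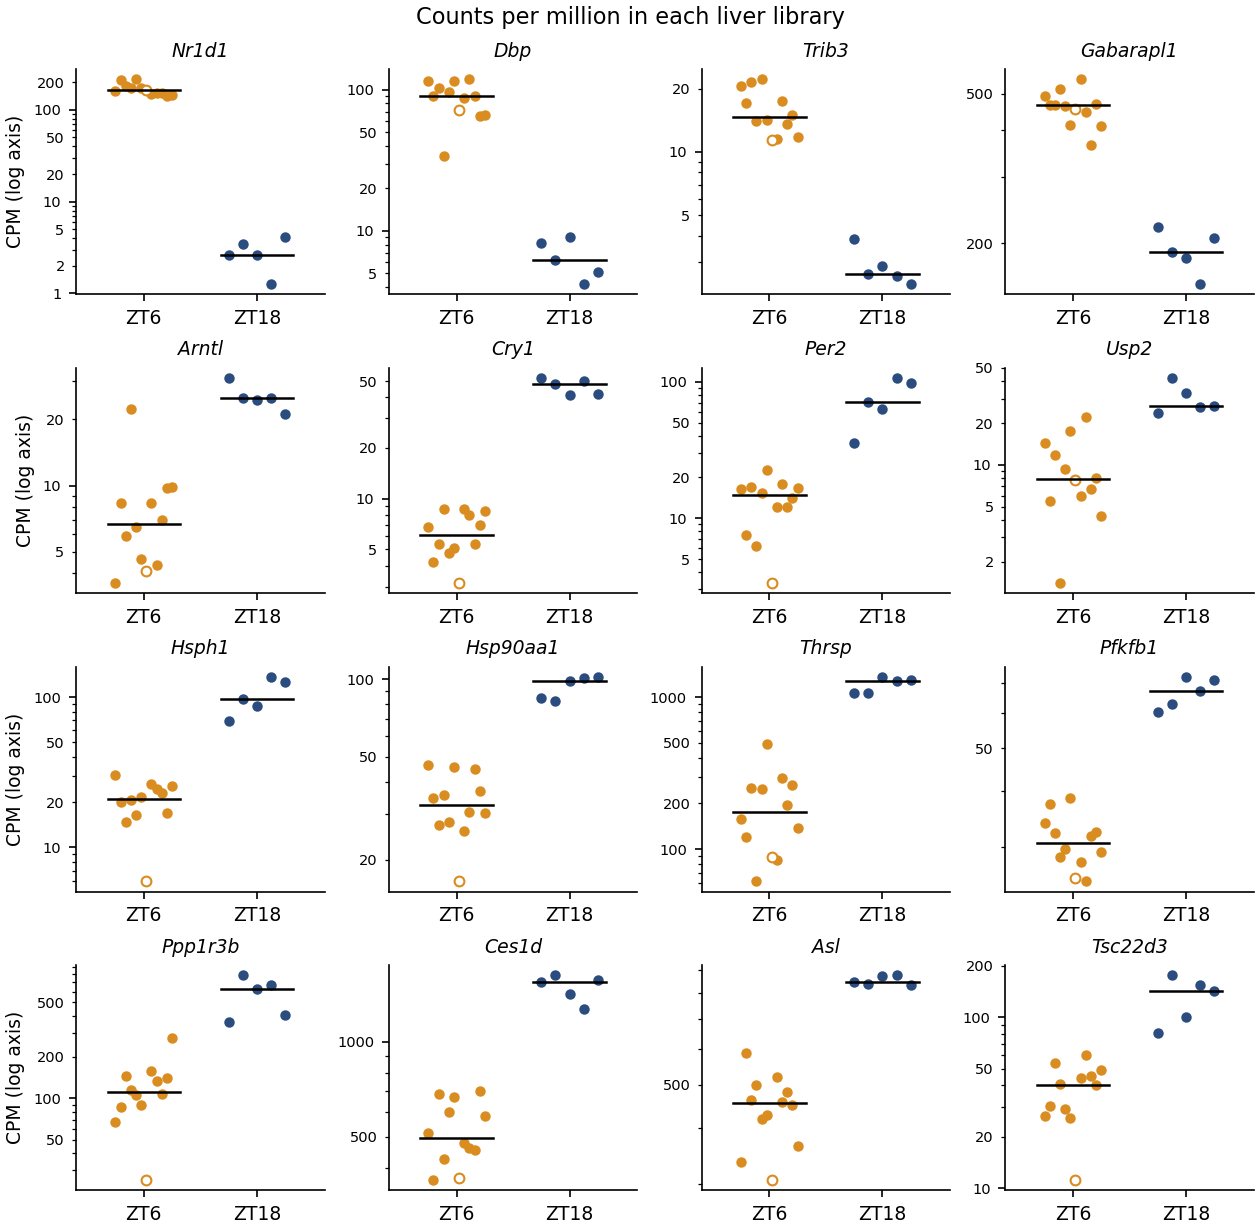
Level of 16 genes in each of the 17 liver libraries (CPM, log axes), ZT6 left in orange and ZT18 right in blue, with the median of each group as a bar and ZT6 replicate 7 as an open circle. The groups overlap for Arntl and not for the other 15 genes. Several of these were named by a rule that required no overlap, so the count is a description. All ZT6 libraries lay above all ZT18 libraries in 2.27% of all genes tested and below them in 3.6%.

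Heat shock chaperones, which fold proteins and are switched on by heat shock factor 1, fell almost as a block at ZT6. Their list is named for the cytosolic ones but also holds the mitochondrial chaperonin genes Hspd1 and Hspe1. Of 17 listed genes, 16 passed the filter on low counts, 15 of these were lower at ZT6 and none was higher, 8 of them by 2-fold or more. Of all genes tested, 11.1% were called lower and 1.82% lower by 2-fold or more. The median ratio of the chaperones was -1.003. In 9 of them every ZT6 library lay below every ZT18 library, as in 3.6% of all genes. The count lower was 16 without replicate 7 and 13 to 16 over the other analyses.

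Hsph1 (HSP110, ENSMUSG00000029657, chromosome 5, 149614287 to 149636376), a nucleotide exchange factor for HSP70, fell furthest. It had 5.95, 21 and 30.4 CPM as lowest, median and highest at ZT6 and 69.4, 97.2, 86.8, 137 and 125 CPM at ZT18 (log2 -2.36 ± 0.19, adjusted p = 1.18e-07). Its lowest ZT6 level was that of replicate 7, and the next lowest was 14.8 CPM. Hsp90aa1, the inducible HSP90, had 16.5, 32.6 and 46.6 CPM at ZT6, against 84.6, 81.9, 98.6, 100.5 and 102 CPM at ZT18 (log2 -1.50 ± 0.14, adjusted p = 4.28e-07). Its constitutive relative Hsp90ab1 fell less, with 756 ± 136 CPM at ZT6 and 1171 ± 64.9 CPM at ZT18 (log2 -0.65 ± 0.09). The HSP90 cochaperones Stip1 (53 ± 8.93 CPM at ZT6 and 104 ± 10.2 CPM at ZT18), Fkbp4 (139 ± 21.5 CPM at ZT6 and 259 ± 18.3 CPM at ZT18) and Ahsa1 (66.8 ± 9.09 CPM at ZT6 and 93.8 ± 3.83 CPM at ZT18) fell too, at log2 -0.99 ± 0.084, log2 -0.91 ± 0.084 and log2 -0.50 ± 0.064.

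A few chaperones named after their values were seen showed how the night libraries differed among themselves. Hspa1b, an inducible HSP70, had 0.839 to 3.86 CPM at ZT6 and 1.18, 10.7, 1.96, 19.7 and 8.18 CPM at ZT18 (log2 -2.06 ± 0.47, adjusted p = 0.00393). ZT18 replicates 1 and 3 lay within the ZT6 range and replicates 2, 5 and 6 above it. Bag3, an HSP70 cochaperone, had 14.2 to 35.6 CPM at ZT6 and 21, 64.4, 28, 80.7 and 48.6 CPM at ZT18 (log2 -1.16 ± 0.23, adjusted p = 0.00114), and replicates 2, 5 and 6 were again the highest. Hspa1a, a near copy of Hspa1b, was too low to test, and reads of the pair may be divided between them. The mitochondrial chaperonin genes had the smallest ratios: Hspd1 was lower (log2 -0.23 ± 0.063, adjusted p = 0.0116), while Hspe1 was not called (adjusted p = 0.553, and 0.00283 without ZT6 replicate 7).

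Heat shock elements were searched in promoters on both strands as GAA, any 2 bases, TTC, any 2 bases and GAA. Of 14 listed chaperones with a promoter in the RefSeq table, 4 held a match (Hsph1, Hspe1, Hspd1 and Chordc1). A match was in 0.662% of the 27025 genes and in 0.549% of the 10751 tested in liver. The windows of Hspe1 and Hspd1 overlap on opposite strands and hold the same matches, so the 4 genes hold 3 separate sets of matches. Hsph1 is shown as the gene of the list with the widest ratio, at its first listed start (chr5:149636266-149636565, minus strand). Chordc1, an HSP90 cochaperone with 22.4 ± 5.46 CPM at ZT6 and 45 ± 12.5 CPM at ZT18 (log2 -1.01 ± 0.16), is shown for its 3 overlapping matches (chr9:18292017-18292316, plus strand). Hspe1 (chr1:55087898-55088197, plus strand) is shown for contrast, since it holds matches and had the smallest ratio of the tested members. Capitals mark the bases covered by matches.
Hsph1: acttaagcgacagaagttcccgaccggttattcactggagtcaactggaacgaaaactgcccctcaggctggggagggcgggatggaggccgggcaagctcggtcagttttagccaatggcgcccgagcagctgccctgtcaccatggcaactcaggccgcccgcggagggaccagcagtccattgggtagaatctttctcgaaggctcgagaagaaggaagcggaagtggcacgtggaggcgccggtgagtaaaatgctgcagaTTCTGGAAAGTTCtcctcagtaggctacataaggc
Chordc1: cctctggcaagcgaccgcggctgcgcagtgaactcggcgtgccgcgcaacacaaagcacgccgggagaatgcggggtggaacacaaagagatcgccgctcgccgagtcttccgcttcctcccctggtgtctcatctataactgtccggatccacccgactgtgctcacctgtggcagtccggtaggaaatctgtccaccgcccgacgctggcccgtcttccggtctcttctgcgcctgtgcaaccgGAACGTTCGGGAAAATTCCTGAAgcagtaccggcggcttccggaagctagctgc
Hspe1: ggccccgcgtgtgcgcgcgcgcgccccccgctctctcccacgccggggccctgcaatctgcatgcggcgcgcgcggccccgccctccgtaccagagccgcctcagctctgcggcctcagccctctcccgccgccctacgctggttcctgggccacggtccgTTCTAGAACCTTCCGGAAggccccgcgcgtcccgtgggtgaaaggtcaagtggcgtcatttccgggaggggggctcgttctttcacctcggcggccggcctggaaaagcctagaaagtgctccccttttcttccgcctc

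Several genes known to respond to glucocorticoids were lower at ZT6. Corticosterone in mice is known to be highest around the start of the night. Of 14 genes tested, 7 were lower, 6 of them by 2-fold or more, and none was higher (8 lower and 1 higher without replicate 7), with a median of -0.98. Over the other analyses 5 to 8 were lower and 0 to 3 higher. The 5 and 3 came from the fit with the L code of the library names, unexplained by the labels, as a factor. Of all genes, 11.1% were lower and 1.82% lower by 2-fold or more. Tsc22d3 (GILZ), a glucocorticoid-induced leucine zipper protein, had 11.2, 40.2 and 60.4 CPM at ZT6 and 80.7, 175, 100.4, 155 and 142 CPM at ZT18, with no overlap (log2 -1.81 ± 0.22, adjusted p = 1.37e-05). Fkbp5, which dampens the glucocorticoid receptor, had 10.6, 15.5 and 30.6 CPM at ZT6, against 32.7, 43.6, 37.5, 55.5 and 35.4 CPM at ZT18 (log2 -1.28 ± 0.19, adjusted p = 0.000111). Ddit4, an inhibitor of mTORC1 signalling, fell by 1.77 on the log2 scale (3.6 ± 1.33 CPM at ZT6 and 12.2 ± 4.97 CPM at ZT18), and the phosphatase Dusp1 by 1.66 (10.4 ± 3.49 CPM at ZT6 and 32.9 ± 16.3 CPM at ZT18). Tat, a tyrosine aminotransferase and classic target, averaged 1082 ± 416 CPM at ZT6 and 2103 ± 689 CPM at ZT18 (log2 -0.98 ± 0.24, adjusted p = 0.00681). The call of Tat was lost in the edgeR fit with the L code as a factor (adjusted p = 0.0606). The metallothioneins Mt1 and Mt2, Sgk1 and Pck1, on the same list, were not called.

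Endoplasmic reticulum chaperones were moved in part. Of 22 genes of this list, 5 were lower and 1 higher (9 and 1 without replicate 7), with 3 to 10 lower over the other analyses and 11.1% of all genes lower. Hspa5 (BiP), the main HSP70 of the compartment, had 177, 611 and 959 CPM at ZT6 and 893, 831, 1036, 1752 and 1126 CPM at ZT18 (log2 -0.96 ± 0.22, adjusted p = 0.00408). Hyou1, its exchange factor, had 39.8, 122 and 236 CPM at ZT6 and 213, 226, 271, 433 and 261 CPM at ZT18 (log2 -1.14 ± 0.22, adjusted p = 0.000952). Atf4, a factor of the integrated stress response, was slightly lower (log2 -0.39 ± 0.077). Trib3, a pseudokinase known as an ATF4 target, went the other way: 11.4, 14.6 and 22.1 CPM at ZT6, against 3.85, 2.63, 2.88, 2.56 and 2.36 CPM at ZT18, with no overlap (log2 2.46 ± 0.18, adjusted p = 3.86e-08). Other chaperones of the compartment, such as Hsp90b1 (1039.8 ± 345 CPM at ZT6 and 1029 ± 204 CPM at ZT18) and Calr (803 ± 149 CPM at ZT6 and 803 ± 149 CPM at ZT18), were not called. The ER stress element, CCAAT, any 9 bases and CCACG on either strand, was in 7 of 19 promoters of the list, Hsp90b1 and Calr included. It was in 0.137% of all genes searched and in 0.167% of those tested in liver. Hspa5 (chr2:34771840-34772139, plus strand) is shown as a member that was called and holds a match.
Hspa5: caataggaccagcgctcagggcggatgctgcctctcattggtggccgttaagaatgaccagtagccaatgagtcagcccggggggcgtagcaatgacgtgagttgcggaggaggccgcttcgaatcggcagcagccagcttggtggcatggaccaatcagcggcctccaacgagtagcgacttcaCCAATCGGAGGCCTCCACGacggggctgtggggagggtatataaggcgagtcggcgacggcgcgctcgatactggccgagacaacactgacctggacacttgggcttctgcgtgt

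Many fatty acid synthesis genes were lower at mid-day. Of 16 genes, 8 were lower and 1 higher (9 and 1 without replicate 7), with a median of -0.51, and 6 to 10 were lower over the other analyses. Of all genes, 11.1% were lower. Thrsp (Spot 14), a regulator of lipogenesis (ENSMUSG00000035686, chromosome 7, 97412938 to 97417730), had 61.5, 176 and 494 CPM at ZT6 and 1066, 1058, 1361, 1279.8 and 1301 CPM at ZT18, with no overlap (log2 -2.62 ± 0.32, adjusted p = 1.19e-05). Fasn, the fatty acid synthase, had 137, 554 and 981 CPM at ZT6 and 752, 1196, 1241, 1786 and 1082 CPM at ZT18 (log2 -1.11 ± 0.24, adjusted p = 0.0029). The highest ZT6 library lay above the lowest ZT18 library. Elovl6, which lengthens the product of FASN, averaged 109 ± 38.1 CPM at ZT6 and 216 ± 16.7 CPM at ZT18 (adjusted p = 0.000453). Pnpla3, a lipase-like protein of the lipid droplet, had 0.582, 1.94 and 3.77 CPM at ZT6 and 9.78, 11, 5.24, 12.4 and 6.88 CPM at ZT18 (log2 -2.06 ± 0.29, adjusted p = 6.34e-05). Elovl5, an elongase of polyunsaturated chains named after its values were seen, was the member that was higher at ZT6 (595 ± 163 CPM at ZT6 and 400.1 ± 80.6 CPM at ZT18, log2 0.56 ± 0.18). Scd1, the stearoyl-CoA desaturase, was not called, with 11168 ± 3591 CPM at ZT6 and 10738 ± 1197 CPM at ZT18.

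The count of sterol synthesis genes called rests on the setting. Of 24 genes, 5 were lower and 1 higher (9 and 1 without replicate 7), where 11.1% and 11.4% of all genes were. The fit with the replicate number as a block gave 0 lower and 4 higher, and the same libraries without the block 1 and 3. Over the other analyses 0 to 9 were lower, and without ZT18 replicate 3 or 5 the count was 2. Mvd, a mevalonate enzyme, was lower (19.9 ± 4.89 CPM at ZT6 and 37.4 ± 17.4 CPM at ZT18, log2 -0.93 ± 0.20), and Sc5d, a late enzyme of the pathway, higher (718 ± 109 CPM at ZT6 and 528 ± 53.4 CPM at ZT18, log2 0.43 ± 0.088).

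Glucose and glycogen genes that were called all fell at ZT6. Of 22 genes, 8 were lower and none higher (9 and 2 without replicate 7), with a median of -0.30, where 11.1% of all genes were lower. The count lower was 5 to 10 over the other analyses, and 5 without ZT18 replicate 1, 2, 3 or 5. Ppp1r3b, which targets a phosphatase to glycogen, had 25.4, 111 and 274 CPM at ZT6, against 357, 787, 630.4, 675 and 403 CPM at ZT18, with no overlap (log2 -2.27 ± 0.29, adjusted p = 1.67e-05). Pfkfb1, which sets the level of a glycolytic activator, fell without overlap (31 ± 4.23 CPM at ZT6 and 66.7 ± 5.17 CPM at ZT18, log2 -1.10 ± 0.09, adjusted p = 1.18e-07), and Pfkl, a phosphofructokinase, fell less (log2 -0.40 ± 0.07). Pck1, a gluconeogenic enzyme, varied widely within both groups and was not called. It had 875, 1714 and 2895 CPM at ZT6 and 1665, 2332, 610.1, 601 and 1844 CPM at ZT18. Of 17 genes of the fasting and feeding hormone response, 2 were lower and none higher (4 and 2 without replicate 7), and 11.1% of all genes were lower. The 2 were Pdk4, which holds back pyruvate oxidation (log2 -0.98 ± 0.24), and Cebpb (log2 -0.54 ± 0.19, adjusted p = 0.0429), whose call was lost in 15 of 30 other analyses.

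In fatty acid oxidation and ketogenesis 2 of 19 genes were higher and 3 lower (2 and 4 without replicate 7), near the 11.4% and 11.1% of all genes. Without ZT18 replicate 1, 2, 3 or 6, 1 was lower. Cpt1a, the gate for fatty acids into mitochondria, was higher at ZT6 (344 ± 41.1 CPM at ZT6 and 242 ± 34.5 CPM at ZT18, log2 0.50 ± 0.097, adjusted p = 0.00105), and so was Bdh1, a ketone body enzyme (log2 0.52 ± 0.073). Among 15 bile acid genes, 3 were higher and 1 lower (3 and 3 without replicate 7), where 11.4% and 11.1% of all genes were. Abcb11, the bile salt export pump, had 414, 771 and 892 CPM at ZT6 and 489, 435, 491, 488 and 453 CPM at ZT18 (log2 0.64 ± 0.084, adjusted p = 2.67e-05), with every ZT6 library above every ZT18 library except replicate 7, at 414 CPM. Abcb4, which exports phospholipid into bile (log2 0.35 ± 0.094), and Amacr, a racemase of side chain oxidation (log2 0.46 ± 0.11), were higher, and Baat, which conjugates bile acids, was lower (log2 -0.31 ± 0.078). Cyp7a1, the rate-limiting enzyme of bile acid synthesis, was spread widely and not called, with 125 ± 76 CPM at ZT6 and 221 ± 76.8 CPM at ZT18 (adjusted p = 0.0761).

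Of 20 triglyceride handling genes, 4 were higher and 4 lower (4 and 8 without replicate 7), where 11.4% and 11.1% of all genes were. Plin5, a lipid droplet coat protein, had 23.6, 28.6 and 38.1 CPM at ZT6, against 49.4, 56.4, 52.5, 56.6 and 49.8 CPM at ZT18, with no overlap (log2 -0.84 ± 0.096, adjusted p = 6.63e-06). Cidec, a droplet fusion protein, was lower at a low level (1.72 ± 0.582 CPM at ZT6 and 4.96 ± 2.59 CPM at ZT18, log2 -1.51 ± 0.27). Agpat2 and Dgat2, which build triglyceride, were also lower, at log2 -0.66 ± 0.15 and log2 -0.38 ± 0.088. Lpl, a lipase of blood lipoproteins, had 20.1, 33.7 and 98 CPM at ZT6 and 19.6, 14.6, 18.2, 16.1 and 13.8 CPM at ZT18, every ZT6 library above every ZT18 library (log2 1.42 ± 0.33, adjusted p = 0.00413).

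Of 21 amino acid and urea cycle genes, 4 were higher and 4 lower (4 and 5 without replicate 7), where 11.4% and 11.1% of all genes were. The count higher was 2 without ZT18 replicate 5 or 6, and 0 in the fit with the replicate number as a block. Asl, the argininosuccinate lyase of the urea cycle (ENSMUSG00000025533, chromosome 5, 130011258 to 130029247), had 306, 454 and 588 CPM at ZT6 and 846, 840.3, 875, 877 and 834 CPM at ZT18 (log2 -0.96 ± 0.094, adjusted p = 1.2e-06). The 5 ZT18 libraries lay close together, and all 12 ZT6 libraries lay below them. Hal, which breaks down histidine, was higher (652 ± 129.8 CPM at ZT6 and 449.6 ± 52.4 CPM at ZT18, log2 0.53 ± 0.12), and Prodh, a proline dehydrogenase, lower (163 ± 42.6 CPM at ZT6 and 259 ± 29.8 CPM at ZT18, log2 -0.67 ± 0.16). Amino acid transporters were among the genes with the widest gain in CPM at ZT6: Slc38a3 averaged 2231 ± 356 CPM at ZT6 and 1173 ± 132 CPM at ZT18, Slc7a2 736 ± 218 CPM at ZT6 and 339 ± 94 CPM at ZT18 and Slc38a4 1558 ± 296 CPM at ZT6 and 1169.7 ± 89.4 CPM at ZT18.

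Drug metabolism genes were mostly lower where they were called, 7 of 27 lower and 1 higher (10 and 2 without replicate 7), where 11.1% and 11.4% of all genes were. Ces1d, a carboxylesterase, had 366, 497 and 698 CPM at ZT6, against 1551, 1625, 1422, 1274 and 1573 CPM at ZT18, with no overlap (log2 -1.51 ± 0.13, adjusted p = 2.94e-07). Gsta3, a glutathione transferase (1466 ± 102 CPM at ZT6 and 2216 ± 31.9 CPM at ZT18, log2 -0.58 ± 0.11), Cyp3a13 (156 ± 15.3 CPM at ZT6 and 246 ± 50.7 CPM at ZT18, log2 -0.66 ± 0.098) and Cyp2a5 (log2 -0.88 ± 0.16), both P450 enzymes, were lower. Reads of the last may be shared with a close paralog. Fmo5, a flavin monooxygenase outside the list, had 451, 736 and 942 CPM at ZT6 and 1623, 1764, 1932, 1615 and 1603 CPM at ZT18 (log2 -1.23 ± 0.078, adjusted p = 4.93e-09). Alas1, which starts heme synthesis for the P450 system, averaged 112 ± 73 CPM at ZT6 and 456 ± 284 CPM at ZT18 (log2 -1.99 ± 0.43, adjusted p = 0.00226) and varied widely at ZT18, from 207 to 909.9 CPM. The P450 genes Cyp2e1 and Cyp3a11 were not called.

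Cofactor genes that were called were mostly lower. In NAD and one-carbon metabolism 5 of 17 genes were lower and 2 higher (6 and 2 without replicate 7), where 11.1% and 11.4% of all genes were. Nampt, the rate-limiting enzyme of NAD salvage, had 31.2, 48.2 and 63.3 CPM at ZT6 and 109.6, 111, 114, 103 and 104 CPM at ZT18, with no overlap (log2 -1.19 ± 0.087, adjusted p = 3.45e-08). Nmrk1, a kinase of a parallel NAD route, fell as well (24.6 ± 3.63 CPM at ZT6 and 46 ± 7.47 CPM at ZT18, log2 -0.91 ± 0.10). Cbs, the first enzyme from homocysteine to cysteine, was higher, with every ZT6 library above every ZT18 library (607 ± 161 CPM at ZT6 and 332 ± 44.4 CPM at ZT18, log2 0.87 ± 0.15). Of 11 iron and heme genes, 3 were lower, among them Tfrc, the transferrin receptor (23.7 ± 8.09 CPM at ZT6 and 47.7 ± 16.5 CPM at ZT18, log2 -1.04 ± 0.21), and 1 higher, the iron exporter Slc40a1 (log2 0.39 ± 0.11), whose call was lost in 4 of 30 other analyses, those without ZT18 replicate 3 or 5 among them. These counts were also 3 and 1 without replicate 7.

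Many ribosome assembly factors were lower at ZT6, and few ribosomal proteins were called. Of 20 nucleolar and RNA polymerase I factors, 10 were lower and none higher (12 and 1 without replicate 7), with a median of -0.35, where 11.1% of all genes were lower. Nop16, a pre-60S factor, had 17.4, 21.1 and 22.5 CPM at ZT6, against 32.6, 34.7, 33.1, 35 and 36.4 CPM at ZT18, with no overlap (log2 -0.75 ± 0.068, adjusted p = 4.46e-07). Mybbp1a (46.8 ± 6.66 CPM at ZT6 and 73.8 ± 7.39 CPM at ZT18), Rrp12 (5.05 ± 1.8 CPM at ZT6 and 12.7 ± 2.71 CPM at ZT18) and Nolc1 (18 ± 4.43 CPM at ZT6 and 39.3 ± 13.4 CPM at ZT18), all nucleolar, fell at log2 -0.67 ± 0.067, log2 -1.36 ± 0.21 and log2 -1.14 ± 0.17. Of 20 cytosolic ribosomal proteins, 3 were lower and none higher (4 and none without replicate 7), near the 11.1% of all genes. These were Rpl10a (log2 -0.79 ± 0.11), Rpl27 (log2 -0.64 ± 0.15) and Rpl3 (log2 -0.19 ± 0.062), whose call was lost in 11 of 30 other analyses, and reads of such genes may be shared with processed copies. None of 20 oxidative phosphorylation subunits was called. Without replicate 7, 8 were called lower, where 17.1% of all genes were in that fit.

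Of the 22 lists, autophagy had the highest share called higher. Of 12 genes, 5 were higher and 1 lower (6 and 2 without replicate 7), with a median of 0.25, while 11.4% of all genes were called higher. Gabarapl1, a GABARAP-family protein of the autophagosome membrane, had 366, 465 and 545 CPM at ZT6 and 221, 189.7, 182, 156 and 206 CPM at ZT18, with no overlap (log2 1.27 ± 0.12, adjusted p = 6.78e-07); 28.3% of its exonic bases are shared with another model. Ulk1, the kinase that starts autophagy, averaged 103 ± 28.2 CPM at ZT6 and 55 ± 10.6 CPM at ZT18 (log2 0.88 ± 0.19, adjusted p = 0.00215). The cargo receptor Sqstm1 (log2 0.44 ± 0.097) and the lysosomal protease Ctsl (log2 0.50 ± 0.097) were higher too.

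Of 14 tested cell cycle regulators, 4 were higher and 4 lower, with and without replicate 7, where 11.4% and 11.1% of all genes were. The counts were 2 and 2 without ZT18 replicate 3, 3 and 2 without ZT18 replicate 1, and 2 and 4 without ZT18 replicate 5 or 6. Cdkn1a (p21), which arrests the cycle and is also on the glucocorticoid list, had 0.736, 1.21 and 5.2 CPM at ZT6 and 3.09, 9.4, 4.18, 12 and 5.19 CPM at ZT18 (log2 -1.95 ± 0.36, adjusted p = 0.000795). Wee1, a kinase that delays mitosis and is known to be under clock control in mouse liver, averaged 8.88 ± 3.24 CPM at ZT6 and 14.8 ± 1.74 CPM at ZT18 (log2 -0.75 ± 0.20). Gadd45a, a growth arrest gene (log2 0.79 ± 0.16), and the proliferation marker Mki67, at 1.81 ± 1.07 CPM at ZT6 and 0.68 ± 0.24 CPM at ZT18 (log2 1.39 ± 0.39), were higher.

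Few plasma protein genes were called. Of 18, 3 were higher and 1 lower (3 and 2 without replicate 7), where 11.4% and 11.1% of all genes were. These were the fibrinogen chains Fga (log2 0.40 ± 0.12), Fgb (log2 0.32 ± 0.11) and Fgg (log2 0.36 ± 0.12), and haptoglobin, Hp (log2 -0.49 ± 0.15). Each of the 4 calls was lost in 5 to 9 of 30 other analyses. Albumin (Alb) averaged 80322 ± 4868 CPM at ZT6 and 80406 ± 7578 CPM at ZT18. Of 10 male-biased genes under growth hormone, Hsd3b5 (log2 0.97 ± 0.26) and Cyp2u1 (log2 0.61 ± 0.20) were higher and Elovl3 (log2 -0.70 ± 0.16) lower, with and without replicate 7. The call of Cyp2u1 was lost in 9 of 30 other analyses, and 11.4% of all genes were higher.

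**Figure D3:**
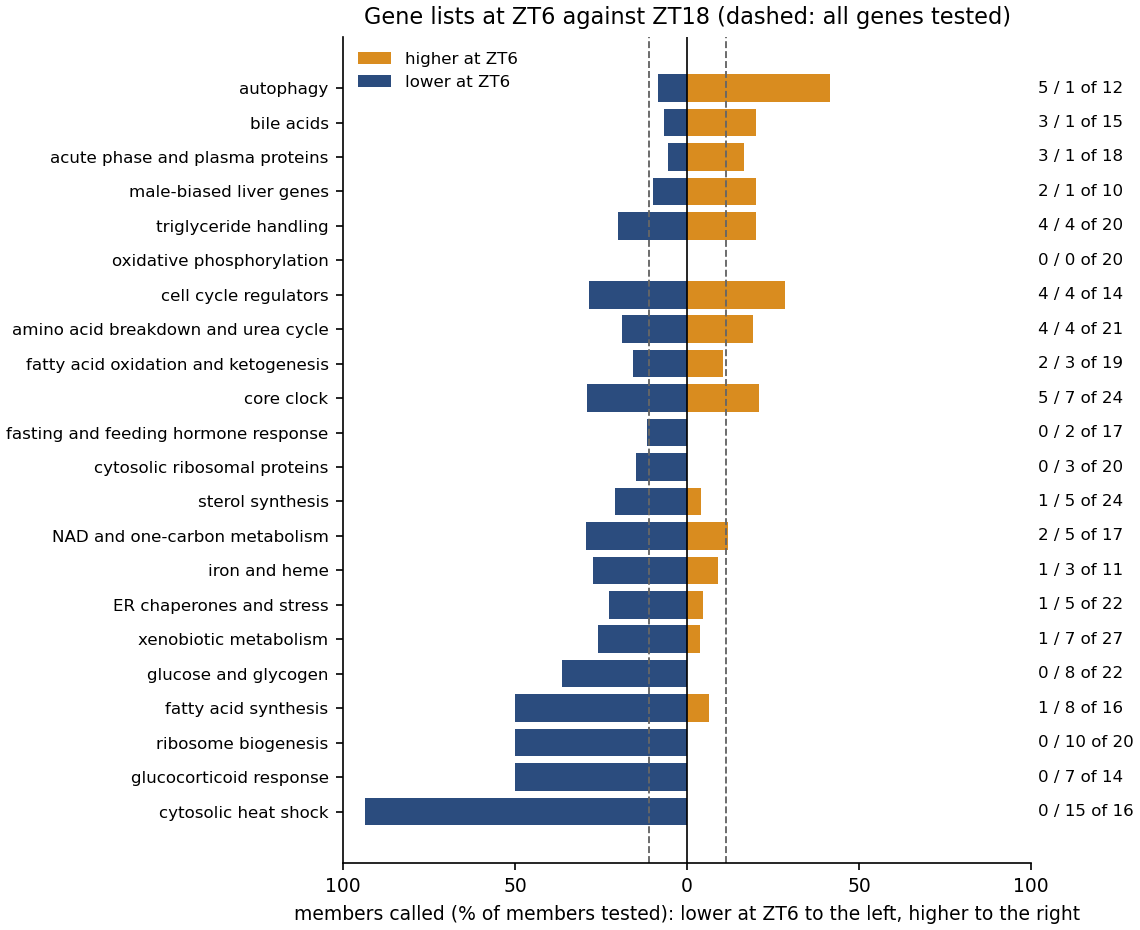
Share of the tested members of each of 22 gene lists called higher (right, orange) or lower (left, blue) at ZT6, in percent of members tested; numbers at the right give members higher, lower and tested, and dashed lines mark all genes (11.4% and 11.1%). Cytosolic heat shock stands out on the lower side with 15 of 16, and autophagy on the higher side with 5 of 12.

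Among the genes with the widest ratios outside these lists, Arrdc3, an arrestin-domain protein, had 209, 324 and 451 CPM at ZT6, against 29.8, 77.3, 43.1, 90.9 and 88.6 CPM at ZT18 (log2 2.31 ± 0.23, adjusted p = 1.2e-06). Fbxo21, a ubiquitin ligase subunit, had 115, 169 and 215 CPM at ZT6 and 67.6, 45.9, 55.7, 41.3 and 43.2 CPM at ZT18 (log2 1.71 ± 0.12, adjusted p = 3.12e-08). Syt1, a calcium sensor best known from synapses, had 8.37, 17.8 and 22.3 CPM at ZT6 and 4.33, 3.61, 5.88, 2.93 and 5.32 CPM at ZT18 (log2 1.96 ± 0.18, adjusted p = 4.97e-07). Casp6, an executioner caspase, averaged 32.6 ± 4.96 CPM at ZT6 and 10.8 ± 1.54 CPM at ZT18 (log2 1.62 ± 0.17), and the immediate early gene Junb 17.7 ± 3.96 CPM at ZT6 and 6.36 ± 0.721 CPM at ZT18 (log2 1.46 ± 0.13). Clec2h, a C-type lectin-like gene, had 18.5, 34.5 and 58.6 CPM at ZT6, and its ZT18 libraries scattered over 10.7, 1.22, 12.7, 1.33 and 4.97 CPM (log2 2.48 ± 0.46).

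Among the genes far lower at ZT6, Tsku (tsukushi), a secreted hepatic protein, had 9.66, 31.9 and 64.1 CPM at ZT6 and 125, 304, 170.4, 207 and 181 CPM at ZT18 (log2 -2.55 ± 0.33, adjusted p = 2.35e-05). Col27a1, a fibrillar collagen gene, had 19.4, 50.3 and 89.1 CPM at ZT6 and 214, 246, 292, 168 and 225 CPM at ZT18 (log2 -2.19 ± 0.26, adjusted p = 1.05e-05). Tnnc1, a troponin of slow muscle and heart, was low at both times, with 0.477 ± 0.209 CPM at ZT6 and 3.75 ± 0.962 CPM at ZT18 (log2 -2.97 ± 0.26). Eif4ebp3, an inhibitor of cap-dependent translation, had 1.91, 4.89 and 8.93 CPM at ZT6, against 24.7, 16.3, 39.3, 37.4 and 28.8 CPM at ZT18 (log2 -2.50 ± 0.25). Serpina4-ps1, an annotated pseudogene, averaged 54.6 ± 30 CPM at ZT6 and 330.4 ± 191 CPM at ZT18 (log2 -2.59 ± 0.35), C4a 44.5 ± 21.8 CPM at ZT6 and 188 ± 92.9 CPM at ZT18 (log2 -2.10 ± 0.30) and Cyp21a1 0.489 ± 0.174 CPM at ZT6 and 3.91 ± 3.13 CPM at ZT18 (log2 -2.99 ± 0.35). For these 3 and Nat8f6, near-identical genes make the assignment of reads uncertain.

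Some genes of other cell types were called, at low levels. Ighd, the immunoglobulin δ heavy chain, had 2.16, 3.26 and 6.15 CPM at ZT6 and 2.04, 0.985, 0.893, 0.599 and 0.541 CPM at ZT18 (log2 1.87 ± 0.28, adjusted p = 0.000109). Of 7 lymphocyte and NK cell markers, 3 were called, all higher, where 11.4% of all genes were. Among them were the B cell genes Cd79a (log2 1.61 ± 0.35) and Ms4a1 (log2 1.65 ± 0.33), named after their values were seen. The T and NK cell genes Cd3e, Cd8a, Nkg7 and Ccl5 were not called. The summed level of the 7 was 4.35 to 14.8 CPM at ZT6 and 2.36 to 5.96 CPM at ZT18. Of 10 Kupffer cell and macrophage markers, 2 were higher, Cd5l (log2 0.79 ± 0.23) and Marco (log2 1.01 ± 0.30), where 11.4% of all genes were. The other 8 were not called. The sum of the 10 was 152 to 403 CPM at ZT6 and 100.5 to 279 CPM at ZT18. Neutrophil markers summed to 121 CPM in a single ZT6 library, replicate 9, with a ZT6 median of 1.31 CPM and 0.346 to 1.90 CPM at ZT18. The part of these cells in other results was not tested.

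The levels over all 8 ZT groups of the liver placed the 2 hours within the day. Of the 1755 genes called higher at ZT6, 41.7% had their highest group mean at ZT6 and 29.3% at ZT9. Of all genes tested, 13.6% and 13.1% did. Their lowest mean fell at ZT15 in 49.5% and at ZT18 in 30.5%, against 20.8% and 11.5% of all genes. Of the 1704 called lower, 49.1% had their lowest mean at ZT6, against 13.5% of all genes. Their highest mean was spread over ZT15 (34.6%), ZT0 (20.8%) and ZT18 (20.6%). For all genes these shares were 11.6%, 16.6% and 6.62%, so the share at ZT0 was near that of all genes. The rule of the comparison used ZT6 and ZT18, so these shares are a description.

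Nr1d1 had its highest group mean at ZT6 (168 ± 24.1 CPM) and low means at ZT18 (2.82 ± 1.07 CPM, and 2.6 ± 2.01 CPM at ZT21). Dbp rose later, to 180.4 ± 11.3 CPM at ZT9. Genes that were not called included some with wide swings at other hours. Npas2 averaged 15.8 ± 3.12 CPM at ZT0, and Ciart, a repressor of BMAL1 and CLOCK, 36 ± 5.81 CPM at ZT12 with 3.22 ± 2.41 CPM at ZT6 and 3.62 ± 1.84 CPM at ZT18. Per1 averaged 60.7 ± 10.7 CPM at ZT12. Hsph1 was highest at ZT15, with 156 ± 43.2 CPM, and so was Thrsp, with 1514 ± 198 CPM.

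The neighbouring hours gave a comparison on libraries that took no part in the first. ZT3 and ZT9 together were set against ZT15 and ZT21 together, and 3709 of 15695 genes (23.6%) were higher and 3551 (22.6%) lower in the day groups. Of the 1755 genes called higher at ZT6, 1476 (84.1%) were called higher there and 0 lower; of the 1704 called lower, 1409 (82.7%) were called lower and 2 higher. These were 39.8% and 39.7% of the neighbouring calls in each direction. All 16 tested heat shock chaperones were lower in the day groups. Ribosome biogenesis was lower in 14 of 20 genes, and ribosomal proteins, with 3 of 20 lower at ZT6, were lower in 17 of 20. Sterol synthesis was not the same there, with 8 of 24 higher and 1 lower. Fatty acid synthesis was 2 higher and 3 lower of 16, against 1 and 8 at ZT6.

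**Figure D4:**
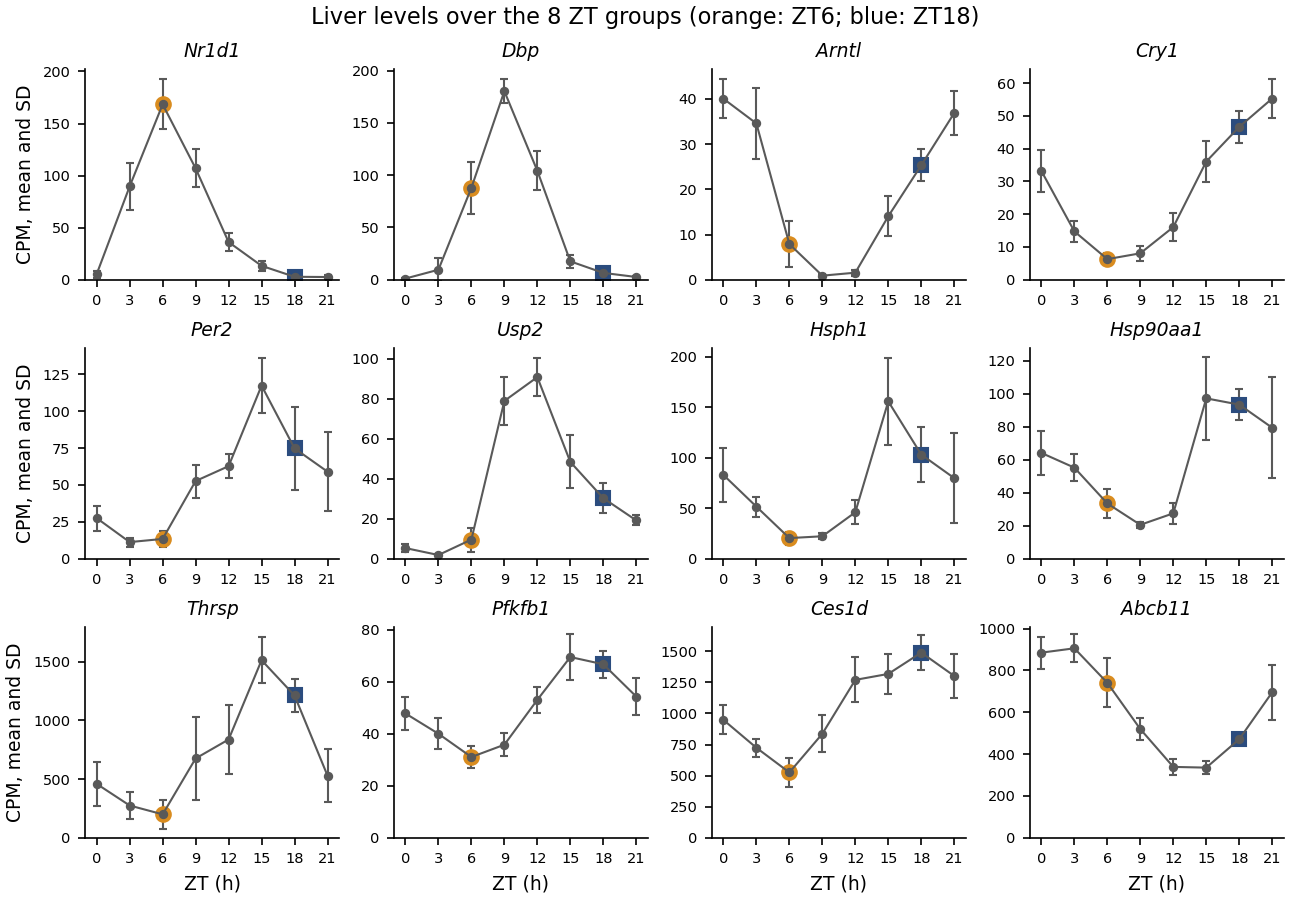
Mean level (CPM, with SD over libraries) of 12 genes in the 8 liver ZT groups, with ZT6 marked by an orange circle and ZT18 by a blue square. Hsph1 and Thrsp peak at ZT15 and Dbp at ZT9, outside the 2 hours compared.

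The ZT6 group joined 2 cycles, so 30 h was set against 6 h within it. Of 14911 genes, 0 were called by edgeR (993 had an unadjusted p under 0.05), and DESeq2 called 4. The 5 genes with the smallest p were Tsku, Fbf1, 5033417F24Rik, Snai2 and Zbtb42. Tsku averaged 50 ± 12 CPM at 30 h and 18.5 ± 8.19 CPM at 6 h (log2 1.35 ± 0.25, unadjusted p = 9.86e-05, adjusted p = 0.664), and both lay below its ZT18 range of 125 to 304 CPM. Fbf1, a protein of the cilium base, averaged 7.74 ± 1.52 CPM at 30 h and 12.6 ± 3.49 CPM at 6 h (log2 -0.79 ± 0.16, unadjusted p = 0.000182, adjusted p = 0.664). ZT18 was sampled in 1 cycle, so a cycle effect there cannot be told apart from time of day.

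All 17 mice also gave a cerebral cortex library, so the ratio of ZT6 to ZT18 was compared between tissues. The cortex groups held 12 libraries at ZT6 and 6 at ZT18. The ZT18 cortex group included the mouse whose liver library, ZT18 replicate 4, was left out. The difference of the log2 ratios, liver minus cortex, was tested in 1 model over both tissues in 14055 genes. That model had no term for the mouse, so the p-values given for the difference leave out the pairing of tissues. The difference was called in 2188 (15.6%), 1191 with a higher ratio in liver and 997 with a lower one. Between ZT6 and ZT18 the cortex alone gave 839 calls of 18486 genes (4.54%). A fit with the mouse as a block called 1768 differences, against 2108 in the same libraries without it.

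Nr1d1 differed most by p: it averaged 109.6 ± 11.9 CPM at ZT6 and 80.3 ± 10.9 CPM at ZT18 in cortex, and the difference of ratios was 5.48 ± 0.22, adjusted p = 2.65e-20. Dbp averaged 64 ± 17.9 CPM at ZT6 and 58.7 ± 7.86 CPM at ZT18 in cortex (difference 3.64 ± 0.30, adjusted p = 7.01e-11). Cry1 averaged 15.3 ± 1.72 CPM at ZT6 and 26.3 ± 2.29 CPM at ZT18 in cortex and was lower at ZT6 in both tissues, by more in liver (difference -2.11 ± 0.17, adjusted p = 6.9e-11). Syt1, abundant in cortex, averaged 1999 ± 162 CPM at ZT6 and 1987 ± 129 CPM at ZT18 in cortex with a cortex ratio of -0.0018 on the log2 scale (difference 1.98 ± 0.18, adjusted p = 8.32e-10). Nampt, Fmo5 and Marveld1 had a lower ratio in liver, with differences of -1.17 ± 0.11, adjusted p = 3.85e-09, of -1.34 ± 0.11, adjusted p = 6.9e-11 and of -1.47 ± 0.11, adjusted p = 8.21e-12. Fbxo21 and St6gal1, a sialyltransferase, had a higher one, with differences of 1.77 ± 0.13, adjusted p = 5.79e-12 and of 1.12 ± 0.095, adjusted p = 1.4e-10.

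Heat shock chaperones also differed between the tissues. Of all 14055 genes tested in both, 1191 had a higher ratio in liver and 997 a lower one. In cortex 280 of these genes were higher at ZT6 and 345 lower. Of 16 chaperones tested in both tissues, 2 were lower at ZT6 in cortex and none higher, with a cortex median of -0.12. A lower ratio in liver than in cortex was called in 11. Hsph1 averaged 313 ± 34 CPM at ZT6 and 362 ± 23.1 CPM at ZT18 in cortex (difference -2.13 ± 0.22, adjusted p = 9.97e-09). Of 24 clock genes, 5 had a higher ratio in liver and 6 a lower one; in cortex 1 was higher at ZT6 and 6 were lower. Fatty acid synthesis had 6 of 15 genes with a lower ratio in liver, ribosome biogenesis 7 of 20, and autophagy 5 of 12 with a higher one. Endoplasmic reticulum chaperones were less parted, 1 higher and 2 lower of 22, with 6 lower at ZT6 in cortex itself.

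**Figure D5:**
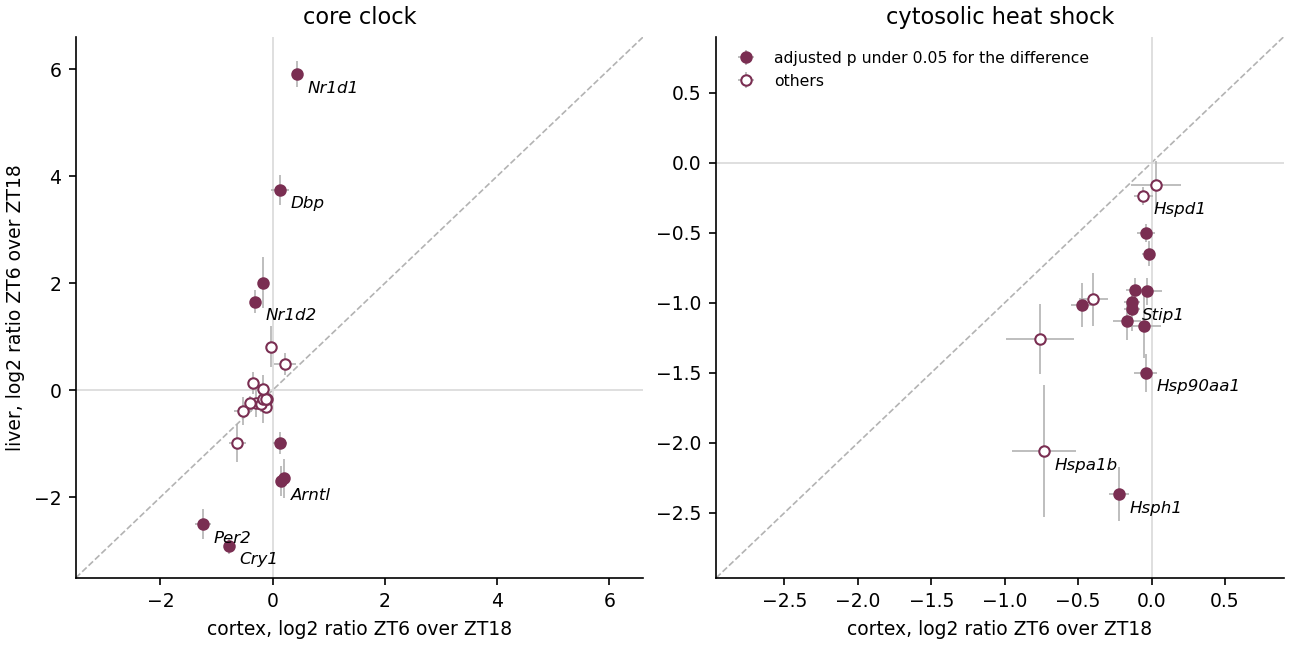
Log2 ratio of ZT6 over ZT18 in liver (vertical axis) against that in cortex (horizontal axis). Clock genes are on the left and the cytosolic heat shock list, mitochondrial Hspd1 and Hspe1 included, on the right. Bars are approximate standard errors, and points are filled where the difference between tissues had an adjusted p under 0.05. Of the 24 clock genes, 22 are plotted. The dashed line marks equal ratios; Nr1d1 lies at 5.91 in liver and 0.44 in cortex, and Hsph1 at -2.36 in liver.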

How the data were processed

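Messenger RNA of 292 mouse libraries was deposited by the authors as tables of raw counts per Ensembl gene and of FPKM values per tissue. Per the submitters' processing notes, the tools were STAR (2.7.3a) and HTSeq (0.10.0), and the genome builds listed are GRCm38 and mm10. Which gene annotation was counted, and whether strand was used, is not stated there. The liver and cortex tables hold 48795 gene identifiers, of which 48349 had a symbol. The deposited FPKM values were only averaged per group for a view per length; every level and test here is from the deposited counts. Positions and shared exons are from GENCODE M21 on GRCm38, which may differ from the authors' release.

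Libraries were grouped by tissue and ZT label. Genes passed filterByExpr, libraries were scaled by TMM, and edgeR 4.0.16 (R 4.3.3) fitted quasi-likelihood models to ZT6 (n = 12) and ZT18 (n = 5). The step was tested on simulated data. Promoter motifs were not searched on 1 chromosome, which is not used here. Library totals of 29.5 to 39.9 M counts limit the precision of genes near 1 CPM. DESeq2 1.42.0, limma 3.58.1 and other alternatives are in the closing section. Within liver each library is from a separate mouse, so p-values there measure spread between mice. The main liver minus cortex fit had no term for the mouse, though 17 mice gave both tissues. Its p-values treat the liver and cortex libraries of a mouse as independent.

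The members, the 22 lists (391 genes) and 12 marker lists (89 genes) were chosen with earlier results of these data known. Named genes were taken by rule: the 20 widest called ratios in each direction without overlap and with at least 2 CPM in the higher group, all clock genes, in every other list the 4 calls of lowest adjusted p, the 10 widest CPM differences in each direction, and the smallest p between cycles (5) and tissues (10). A few genes under these rules are not reported here. Other list members named were chosen after their values were seen.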

Additional observations from a re-analysis of the deposited data

Results flagged for a closer look

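In 150 genes the 5 ZT18 libraries were checked for a single library far from the others, with Dixon's ratio at its 95% value. It was exceeded in 4, and chance alone gives about 5% of groups. Nat8f6 had 4.36 CPM in ZT18 replicate 2, with 2.48 to 2.90 CPM in the other 4. Hyou1 had 433 CPM in replicate 5, with 213 to 271 CPM in the others. Cyp3a13 had 335 CPM in replicate 6, with 211 to 232 CPM in the others. Ctsl had 414 CPM in replicate 2, with 470.2 to 489 CPM in the others.

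The ratio of ZT6 to ZT18 differed between liver and cortex in 2188 genes by the test of the difference itself. Of the 10 with the smallest p, 9 are given here, with log2 differences, liver minus cortex, of 5.48 for Nr1d1, 1.77 for Fbxo21, -1.47 for Marveld1, -2.11 for Cry1, -1.34 for Fmo5, 3.64 for Dbp, 1.12 for St6gal1, 1.98 for Syt1 and -1.17 for Nampt.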

How the results depend on the processing

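All 30 alternatives of the ZT6 to ZT18 comparison were run. The 3459 calls became 5235 (2749 higher) with all 8 ZT groups in the fit and 2402 (1160 higher) with ZT6 at 6 h alone. Leaving out 1 library gave 2581 to 5129 calls (1298 to 2509 higher, 1283 to 2620 lower) and 503 to 644 calls at 2-fold; ZT6 replicate 7 gave the highest count. With ZT18 replicate 4 there were 3064, with no TMM 2757, with DESeq2 4071 and with limma 3473. In the neighbouring hours, 365 genes passed 2-fold, and 817 with no filter on low counts. Between cycles, DESeq2 called 4 genes, 2 higher and 2 lower, 1 of them at 2-fold. Replicate numbers did not pair the samples (correlations of same-numbered samples ran from -0.11 to 0.21); a fit with the replicate block gave 2952 calls and the same libraries without it, a fit chosen after seeing the data, 3879. The liver minus cortex count was 2826 without liver ZT6 replicate 7 and 1727 with no filter. Leaving out that library there and the mouse fit without its block were also chosen after seeing the data. Of 140 named genes, 128 were called in the main fit. Of the 140, 105 kept their status and direction throughout, and a gene that stayed uncalled counts as kept. Outside the clock list, they were picked for small p or wide differences in these same data. The 105 is therefore no rate for calls in general. Of 4200 values 116 lost and 15 gained the call. Uncalled genes changed sign: Per3 0.12 with the block and 0.14 without it, Tef -0.081 at 6 h alone, Ciart 0.13 at 30 h, 0.12 with the block, 0.047 without it and -0.43 to 0.081 without single libraries, and Csnk1e -0.019 with ZT18 replicate 4, -0.068 at 6 h and -0.021 to 0.071 without single libraries. The cause was not tested. Genes near 1 CPM are limited by depth.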

Other observations

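The following genes were chosen after their values were seen, and no test was made between the libraries set side by side. ZT6 replicates 2, 4 and 8 held the highest levels of Lpl in the ZT6 group, 98.04, 80.7 and 72.0 CPM, with 20.1 to 45.1 CPM in the other 9 ZT6 libraries and 13.8 to 19.6 CPM at ZT18. The same replicates held the highest levels of Cbs, 895, 887 and 791 CPM, with 449 to 652 CPM in the other 9 and 286 to 399.9 CPM at ZT18. Thrsp was low in replicates 4 and 8, at 61.5 and 85.5 CPM, and in replicate 7, at 89.4 CPM, with 120.2 to 494 CPM in the other ZT6 libraries and 1058 to 1361 CPM at ZT18. Among the ZT18 libraries, Bag3, the HSP70 cochaperone, was at 64.4, 80.7 and 48.6 CPM in replicates 2, 5 and 6 and at 21.0 and 28.0 CPM in replicates 1 and 3.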
